A study of Mus musculus with 36 samples.

Results

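The 150 cytoplasmic RNAs whose abundance was highest, relative to unstressed cells, at 2 h after release from a long and strong hyperosmotic stress were examined in mouse embryonic fibroblasts of the strain C57BL/6J. All groups were cells in culture that differed in the sorbitol added to their medium and in the time after its removal; sorbitol is a sugar alcohol that raises osmolarity. The 9 conditions were Normal Condition (unstressed), 500 mOSM 2h, 600 mOSM 2h, 700 mOSM 15min (the short stress), 700 mOSM 2h (the long stress), and recovery in normal medium, 15 min or 2 h long, after the short and after the long stress. Each condition had 2 RNA-seq libraries of cytoplasmic RNA and 2 Ribo-seq libraries, in which the stretches of mRNA covered by ribosomes are sequenced. No label gave a genotype, a transgene or the age or number of the embryos, and the lysates came from several plates of cells.

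The members were chosen from the measured RNA values. For each transcript listed in both unstressed RNA libraries, the mean FPKM (reads per length of transcript and per library total) of the 2 libraries at 2 h after release from the long stress plus 1 was divided by the unstressed mean plus 1. The 150 transcripts with the highest ratio were taken out of 12890, after 6 named transcripts had been left out by the rule; 5 of those 6 had a ratio above that of the last member. Another 5 transcripts exceeded that ratio but were unlisted in an unstressed library. The ratio ran from 2.91 to 24.2 with a median of 4.20; it was at least 5 in 47 members, at least 10 in 15 and at least 20 in 2. The last 3 members had ratios of 2.92, 2.91 and 2.91, and the next 3 transcripts had 2.89, 2.82 and 2.82. All values of this one comparison describe the choice and were not tested.

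The deposited lists carry Ensembl transcript identifiers alone, and no table used here ties these to genes. Members are therefore called by their rank in the ratio, no role is given for any of them, and the labelled cell type was not checked against marker genes. As background, a hypertonic medium draws water out of cells, which shrink and concentrate their contents. Cells slow the initiation of translation under such stress, while the transcription factor TonEBP drives genes that build up compatible osmolytes. When the medium returns to normal, cells take up water again and translation resumes.

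The read depth was uneven between conditions. On listed transcripts there were 6851958 to 55262396 reads per RNA library and 734083 to 9124787 per footprint library, with the shallowest at 700 mOsm. Libraries were scaled to abundant transcripts, so that a value is relative to the usual change of those (scaled FPKM for RNA, scaled RPKM for footprints over the coding sequence). Differences are on the scale of log2(scaled value + 1), so changes of scarce transcripts come out too small. The 2 RNA libraries of a condition are given as n = 2. Whether they came from separate cultures is not stated, so a p-value here measures only how these libraries spread, and that spread may be technical. Footprint libraries of the same condition agreed nearly within counting error (chi-square over degrees of freedom, mean over transcripts, 1.005 to 1.085). Each such pair therefore counted as 1 sample, with no replicate error and no test.

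For 2 RNA groups the deposited files were named for each other's condition: those labelled 700 mOSM 15min Recovery 2h and 700 mOSM 2h Recovery 15min. They are called the libraries labelled so throughout, and comparisons of them with a stress are given for the exchanged group as well. Between the 2 groups, the RNA difference and the footprint difference had opposite signs in 65 of the 85 members past both filters on low values, with a Pearson r of -0.72 across these members and -0.55 across all 8446 transcripts past both filters. The members and the transcripts share libraries and depth within each assay, and no p is given. The libraries labelled 700 mOSM 2h Recovery 15min differed from those of 700 mOSM 15min Recovery 15min with an SD of 0.19 on the log2 scale across 9275 transcripts, and those labelled 700 mOSM 15min Recovery 2h with an SD of 0.31. From 700 mOSM 2h the same groups differed with SDs of 0.60 and 0.35. Which assignment is right was not tested.

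The unstressed level of the members had a median of 2.66 scaled FPKM, 41 members were under 1 and 29 were at 10 or more. At 2 h after release from the long stress the median was 17.8, the lowest member stood at 2.24 and the highest at 993. Together they made up 0.306% of the summed scaled FPKM in unstressed cells, 0.209% after the long stress and 1.75% after the 2 h recovery that followed. Their share of the summed scaled RPKM of footprints, which the rule did not use, was 0.323% in unstressed cells and 1.97% in that recovery. The read numbers behind the rule were low for some: 6 members had fewer than 10 reads in both unstressed RNA libraries and 105 had at least 100 in both. In the recovery libraries 146 members had at least 100 reads in both, and the lowest number was 86. The RNA levels and read numbers of the other candidates were not set beside these.

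The median member stayed near its unstressed level in most other conditions. It was 3.34 scaled FPKM at 500 mOsm, 2.84 at 600 mOsm, 3.12 after the short stress and 2.45 after the long stress. At 15 min after release from the short stress it was 3.69. It was 3.91 in the libraries labelled 2 h after release from the short stress and 4.32 in those labelled 15 min after release from the long stress. The mean RNA level was highest at 2 h after release from the long stress in 141 of 150 members. Both libraries of that condition lay above all 16 other RNA libraries in 139 of 150 members, beside 16.7% of the 12890 candidates; the rule used 4 of these libraries, so the count is largely its result. By the rule all 150 members were at least 2-fold above unstressed cells, as were 3.03% of the candidates, with 0.0155% at least 2-fold below.

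**Figure D1:**
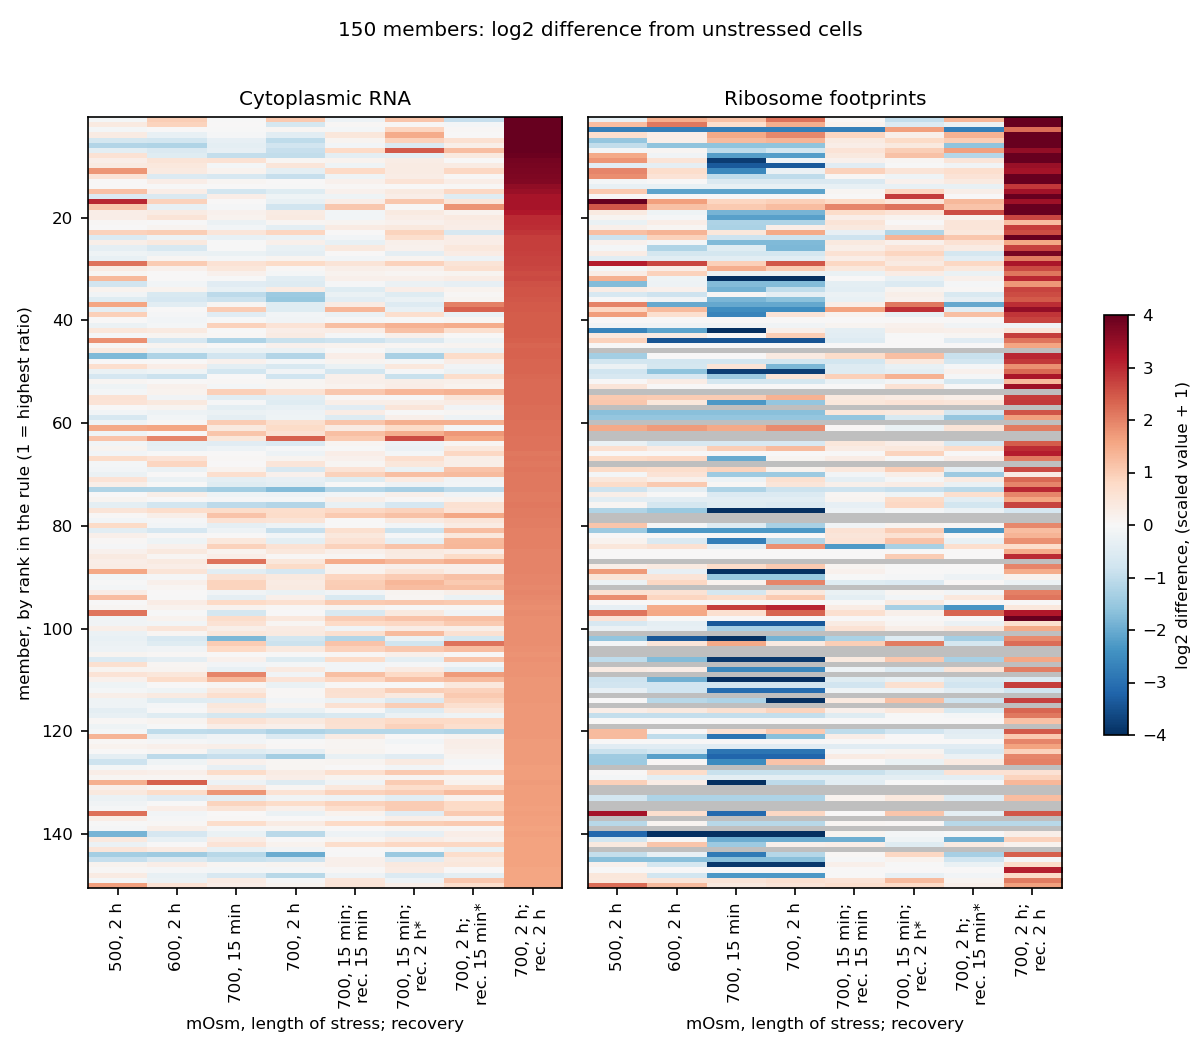
Difference from unstressed cells (colour, log2 of scaled value + 1, limits at -4 and 4) of the 150 members, in rows by rank, in 8 conditions, for RNA (left) and footprints (right). Grey rows are the 27 members in no footprint list, and asterisks mark the 2 conditions whose RNA libraries were named for each other's condition. The last RNA column follows from the rule; the last footprint column was not used by it.

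Rank 1, ENSMUST00000074519, is a transcript of 2827 nt with 398 codons. Its RNA was at 7.31 and 5.70 scaled FPKM in the 2 unstressed libraries and at 187 and 183 in the 2 libraries of 2 h recovery from the long stress. It stood at 6.02 and 6.12 at 500 mOsm, 12.8 and 14.8 at 600 mOsm, 6.02 and 6.91 after the short stress, and 15.5 and 13.6 after the long stress. The 2 recovery libraries were thus far above all 16 others, and the libraries of 600 mOsm and of the long stress did not overlap those of 500 mOsm or the short stress. Among the other recoveries, it was at 5.81 and 5.28 scaled FPKM after 15 min from the short stress, at 15.2 and 15.1 in the libraries labelled 2 h from the short stress, and at 2.57 and 3.37 in those labelled 15 min from the long stress. RNA of rank 1 rose between 500 and 600 mOsm by 1.06 ± 0.109 (log2, SE; limma adjusted p = 6.91e-06) and was 1.13 ± 0.132 higher at 700 than at 500 mOsm (limma adjusted p = 2.21e-06).

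Footprints on rank 1 followed a similar order during stress. They were at 14.2 and 13.0 scaled RPKM in unstressed cells, 10.1 and 11.7 at 500 mOsm, 34.7 and 42.6 at 600 mOsm, 30.5 and 32.8 after the short stress and 61.9 and 67.4 after the long stress. At 2 h after release from the long stress they were at 355 and 358. The footprint libraries of the short stress lay above the unstressed ones, while the RNA libraries of these conditions overlapped.

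Rank 2, ENSMUST00000021903, is a shorter transcript of 1071 nt with 160 codons. Its RNA was at 11.9 and 15.6 scaled FPKM in unstressed cells, 16.8 and 19.0 at 500 mOsm, 26.0 and 26.5 at 600 mOsm, 14.7 and 13.3 after the short stress, 8.51 and 7.66 after the long stress, and 297 and 330 at 2 h after release from it. Its footprints were at 64.4 and 67.0 scaled RPKM in unstressed cells, 158 and 150 at 500 mOsm, 270 and 307 at 600 mOsm, 103 and 105 after the short stress, 183 and 176 after the long stress, and 1179 and 1216 at 2 h of recovery. After the long stress both RNA libraries lay below the unstressed ones and both footprint libraries above them. The RNA fell by 1.59 (log2, SE 0.153; limma adjusted p = 7.17e-07) from 600 to 700 mOsm.

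Other members near the top differed in their starting level. Rank 3, a transcript of 390 nt, had 1 read in each unstressed RNA library and 238 and 248 reads at 2 h after release from the long stress, so its ratio rests on the added 1. Rank 4 was already at 36.8 and 50.7 scaled FPKM in unstressed cells and reached 731 and 795. Rank 8 was at 2.08 and 2.56 in unstressed cells and at 47.5 and 50.8 in recovery. In these 3 members no other RNA library reached the level of the 2 recovery libraries.

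**Figure D2:**
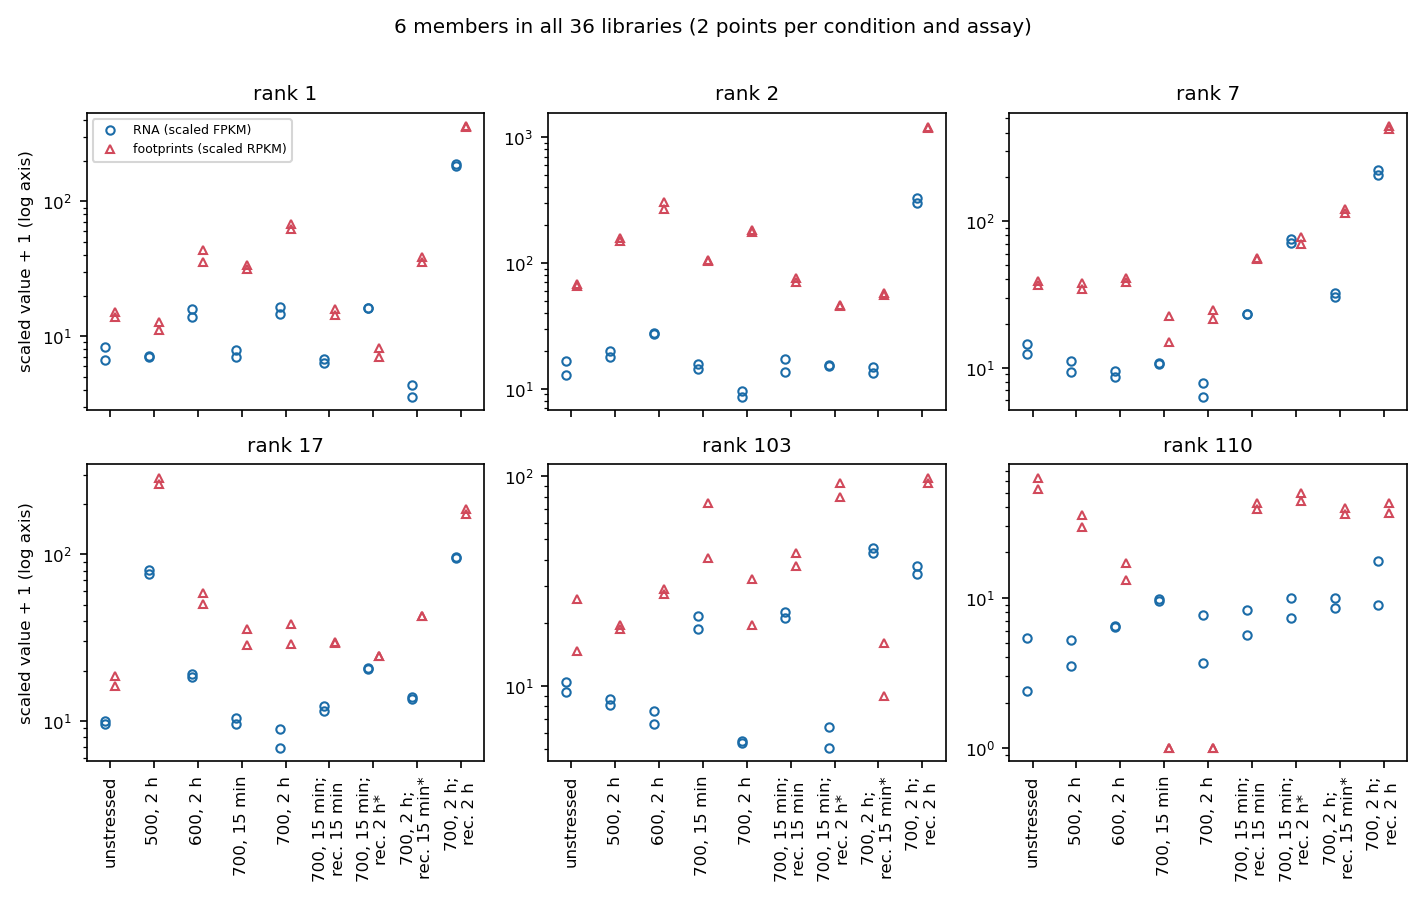
Scaled RNA and footprint values plus 1 (log axis) of 6 members in all 36 libraries, 2 points per condition and assay; the asterisks mark the conditions whose RNA libraries were named for each other's condition. Ranks 1 and 2 stand apart in the recovery from the long stress in both assays, rank 17 is also high at 500 mOsm, and the footprints of rank 110 at recovery, 35.9 and 41.8 scaled RPKM, lie below the unstressed values.

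The footprint libraries allowed the members to be read in an assay that the rule did not use. At 2 h after release from the long stress, 101 of the 123 members in a footprint list had values at least 2-fold above unstressed cells. In 1 they were at least 2-fold below. The shares over all 11037 transcripts in a footprint list were 4.58% and 7.38%. A filter on low values (a mean of at least 2 over the 18 libraries) was passed by 88 members, 8 of them through the libraries of this recovery alone. Over the other 16 libraries 80 members passed, of which 67 were higher and 0 lower, beside 3.55% and 7.27% of the 8809 transcripts past it. The 123 members in any footprint list had a median log2 change of 2.22, against -0.13 for the 11037. Both footprint libraries of this recovery were above all 16 others in 99 members, beside 6.94% of the 11037 transcripts. Of the 123 members, 115 had a change above 0.

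The size of the footprint change went with the rank. Among ranks 1 to 50, 47 members were at least 2-fold higher in footprints, with a median log2 change of 2.85 over the 49 in a footprint list. Among ranks 51 to 100 there were 32, with a median of 1.95 over 40, and among ranks 101 to 150 there were 22, with a median of 1.58 over 34. The medians of the RNA change, which the rule fixed, were 2.75, 2.09 and 1.69 in the same order. The 150 transcripts that followed the members in the ratio had 79 at least 2-fold higher in footprints and a median of 1.20 over the 124 in a list.

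Across the 123 members in both assays the footprint change and the RNA change had a Pearson r of 0.67 and a Spearman rho of 0.65; the rule had chosen the members on one of the axes, so both are given as a description. The footprint change minus the RNA change had a median of -0.02 and quartiles of -0.66 and 0.52 in these 123 members. Over the 8446 transcripts past both filters, which include only 85 members, the median was -0.16, so these medians cover unlike sets. The difference lay within 1 on the log2 scale in 89 of the 123, above 1 in 13 and below -1 in 21. The shares of all transcripts in these ranges are not given.

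**Figure D3:**
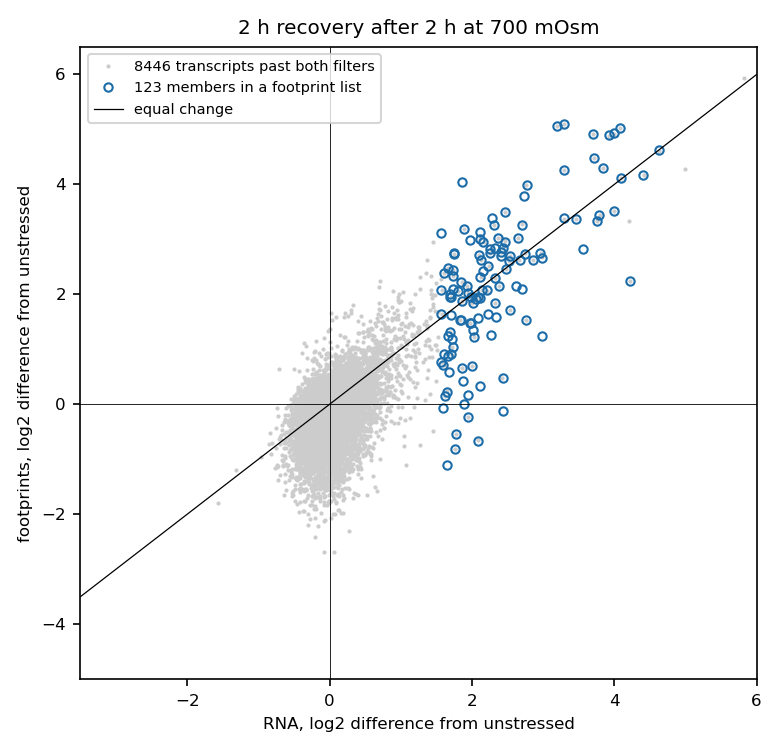
Footprint change against RNA change (both log2 differences from unstressed cells) at 2 h after release from the long stress, for the 123 members in a footprint list (circles) and the 8446 transcripts past both filters (grey, members among them). The sharp left edge of the members follows from the rule; 89 members lie within 1 of the line of equal change.

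The 5 members past the filter with the largest footprint change had unstressed means from 0 to 20.3 scaled RPKM. Ranks 6, 13 and 16 passed the filter only through the recovery libraries in which they were high, so their place here follows partly from that recovery. Over the 150 members the median was 2.84 and the upper quartile 13.5. Rank 16 was unlisted in both unstressed footprint libraries and had 33.1 and 33.4 scaled RPKM in recovery, from 62 and 63 reads, so that its log2 change of 5.10 depends on the added 1. Rank 19 went from 2.77 and 2.42 scaled RPKM to 121 and 118, a log2 change of 5.07, while its RNA went from 5.26 and 6.99 to 62.5 and 65.8 scaled FPKM, a change of 3.19. Rank 5, with 107 codons, went from 22.7 and 17.97 to 696 and 685 scaled RPKM, and rank 6 from 2.54 and 1.54 to 91.3 and 91.4. Rank 13 went from 0.482 and 0.530 to 44.2 and 44.4. In each of these 5 members both recovery libraries were above all other footprint libraries, and the reads behind the unstressed values numbered at most 57 per library.

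At the other end, 8 members in both assays had a footprint change at or below 0, although their RNA changes lay between 1.60 and 2.43. Ranks 41, 95 and 138 were near the floor, at 0.0965, 0 and 1.16 scaled RPKM in unstressed cells and 0 in recovery. Among the members past the filter, rank 112 went from 6.72 and 8.29 scaled RPKM in unstressed cells to 2.52 and 5.19 in recovery, and rank 77 from 16.1 and 13.1 to 7.07 and 10.7. These rest on 14 to 77 reads per library. Rank 110 was better read, with 208 and 181 footprint reads in unstressed cells and 75 and 88 in recovery, and went from 61.9 and 51.8 to 35.9 and 41.8 scaled RPKM. Its RNA libraries spread widely, from 1.37 and 4.37 scaled FPKM to 7.94 and 16.6. For these 3 members the unstressed and recovery footprint libraries did not overlap. Each pair counted as 1 sample, so that says nothing of the spread between cultures.

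During stress the footprints of the members divided. The counts are of the 123 members in a footprint list, beside shares of the 11037 transcripts in such a list. At 500 mOsm 24 members were at least 2-fold higher than in unstressed cells and 16 lower, beside 0.779% and 15.9%. At 600 mOsm there were 14 and 21, beside 3.23% and 33.3%. After the short stress there were 9 higher and 59 lower, beside 14.5% and 44.8%. After the long stress there were 19 and 49, beside 13.7% and 44.1%. The split at 700 mOsm depended on the scaling. Of the 88 members past the filter, 9 were higher and 50 lower after the short stress, beside 17.2% and 46.9% of all transcripts past it, and on the deposited RPKM values 1 and 53. After the long stress they numbered 19 and 40, beside 16.6% and 45.5%, and on the deposited values 9 and 44. The shares of all transcripts on the deposited values are not given, so those counts show only how the scaling moved the members. The median log2 change of the 123 listed members was 0.00 at 500 and 600 mOsm, -0.83 after the short and -0.56 after the long stress, against -0.15, -0.40, -0.74 and -0.77 over all 11037. These medians count a member unlisted in both groups as unchanged. For the 88 members past the filter they were 0.25, 0.02, -1.45 and -0.71, against -0.13, -0.40, -0.80 and -0.80 over the 8849 transcripts past it. Only 80 of the 88 passed the filter without the libraries of 2 h recovery from the long stress, and the values here are for all 88. Many members were unlisted at 700 mOsm, where depth was lowest: 105 were in neither library of the short stress and 97 in neither of the long stress, against 40 in unstressed cells and 30 at 2 h after release from the long stress. All these counts include the 27 members in no footprint list. Fewer transcripts of any kind were listed there, 6193 to 7145 per library of these stresses, against 10421 and 10458 in unstressed cells. Lack of a listing means few reads and need not mean 0, so how far the unlisted members dropped was not detectable at this depth.

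Of the 24 members with at least 2-fold higher footprints at 500 mOsm, 14 were also at least 2-fold higher in RNA, of 17 such members in RNA. Over the 10916 candidates in a footprint list these numbers were 82, 29 and 40. Among the 17 members, rank 63 is in no footprint list. After the long stress 19 members were at least 2-fold higher in footprints and 2 in RNA, ranks 1 and 63. Rank 1 was the 1 member in both counts, and over those candidates the numbers were 1493 and 19, with 7 in both. Rank 4, for example, had footprints of 121 and 125 scaled RPKM in unstressed cells and of 485 and 458 after the long stress, with RNA at 36.8 and 50.7 and then at 33.9 and 30.8 scaled FPKM. Its RNA libraries after the long stress lay below the unstressed ones and its footprint libraries above them.

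During recovery from the short stress most members were within 2-fold of unstressed cells in footprints, with members unlisted in both groups counted as unchanged. After 15 min 2 of the 123 listed members were at least 2-fold higher and 6 lower, beside 0.544% and 1.33% of all listed transcripts. After 2 h there were 17 of the 123 higher and 3 lower, beside 0.734% and 0.344%, so both were more frequent among listed members than among all listed transcripts. At 15 min after release from the long stress there were 9 higher and 14 lower, beside 1.68% and 6.21%. The median changes of the listed members were 0.06, 0.15 and -0.02 in these 3 conditions, far from the 2.22 at 2 h after release from the long stress. The names of the footprint files matched their labels, so these conditions are given as labelled.

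**Figure D4:**
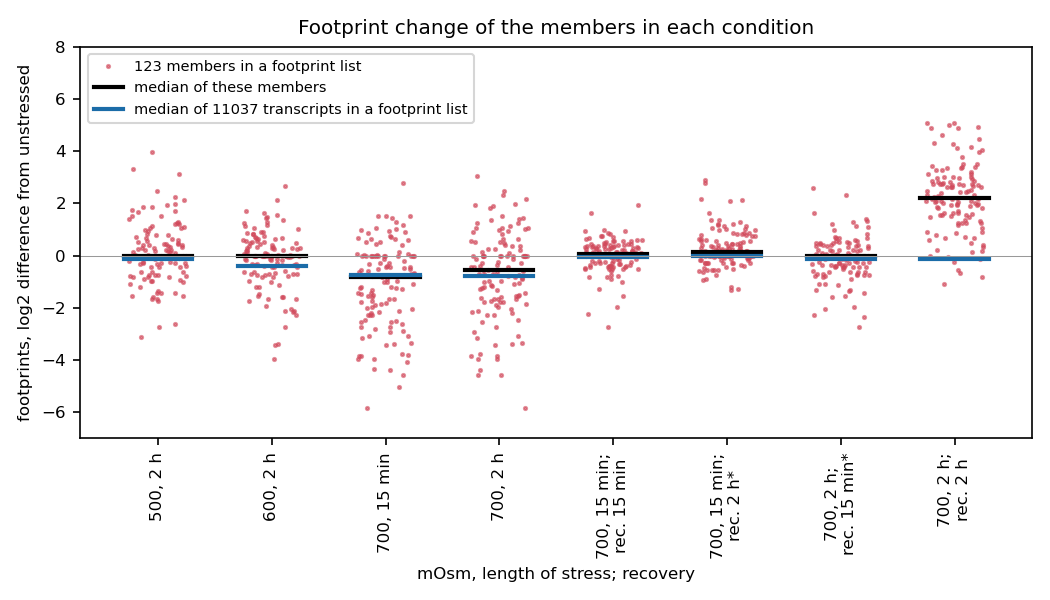
Footprint change from unstressed cells (log2 difference, each dot 1 member, spread sideways at random) of the 123 members in a footprint list, in 8 conditions; black bars are their medians and blue bars the medians of all 11037 transcripts in such a list. The black bar reaches 2.22 at 2 h after release from the long stress and lies between -0.83 and 0.15 in the other 7 conditions; the asterisks concern the RNA libraries alone.

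In RNA, comparisons with unstressed cells share 2 libraries with the rule and are given as counts without a test. At least 2-fold higher and lower than in unstressed cells were 17 and 5 members at 500 mOsm (0.341% and 0.427% of the 12890 candidates), 4 and 6 at 600 mOsm (0.147% and 0.357%), 9 and 7 after the short stress (0.403% and 1.44%), and 2 and 11 after the long stress (0.186% and 4.91%). In recovery the numbers were 13 and 3 after 15 min from the short stress (0.256% and 0.031%). They were 27 and 4 in the libraries labelled 2 h from the short stress (0.334% and 0.132%), and 32 and 2 in those labelled 15 min from the long stress (0.551% and 0.0388%). In these 3 recoveries higher members outnumbered lower ones, as higher RNAs did among the candidates. None of the 27 RNAs that were at least 2-fold higher in the libraries labelled 2 h from the short stress was so in the footprint libraries of that label, where 17 members were; over the 10916 candidates in a footprint list 2 were in both, of 27 and 78. Set against the footprint libraries with the other label, 4 were higher in both (12 of the candidates). Of the 32 RNAs labelled 15 min from the long stress, 2 were also higher in footprints of that label (5 of 51 candidates). Against the footprints labelled 2 h from the short stress, 9 of the 32 were (26 of 51 candidates). The 27 and the 32 include members in no footprint list, such as ranks 54, 60 and 62, which could not be higher in footprints. The candidate counts leave such RNAs out.

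The remaining RNA comparisons used neither group of the rule and were tested with limma over 9275 RNAs past a filter on low values, with Benjamini-Hochberg adjustment at 0.05. Of the members, 111 passed the filter, and 96 passed it over the 14 libraries that the rule did not use. Counts for both are given, but those with the exchanged groups are for the 111 only. Some of these 111 passed the filter only with the libraries of the rule. Between 500 and 600 mOsm 7 members rose and 30 fell, beside 6.38% and 10.4% of all RNAs, with a median log2 difference of -0.02 against 0.00. Without the filter 8 of 150 rose and 30 fell, beside 2.76% and 5.65%. From 500 to 700 mOsm 21 rose and 46 fell, beside 23.0% and 34.9%, with a median of -0.07 for the members and for all RNAs; on the deposited FPKM values 13 rose and 46 fell. Without the filter 21 of 150 rose and 50 fell, beside 13.0% and 22.0%. From 600 to 700 mOsm 11 rose and 33 fell, beside 17.5% and 33.0%, with medians of -0.12 and -0.09. The number of rises in that last step was 19 without the first library of 700 mOsm 2h, and 3 without the second of 600 mOsm 2h. On the deposited FPKM values 6 rose and 36 fell. No share of all RNAs is given on those values, for this step or from 500 to 700 mOsm. Without the filter 6 of 150 rose and 30 fell, beside 9.49% and 19.8%. With the filter over the 14 libraries outside the rule, 6 of 96 members rose and 28 fell between 500 and 600 mOsm, beside 6.39% and 10.4%. From 500 to 700 mOsm they were 19 and 44, beside 23.1% and 34.9%, and from 600 to 700 mOsm 9 and 31, beside 17.5% and 33.0%. Of these 3 steps, the share of falling members was furthest from that of all RNAs in the first.

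A few members carried large falls with dose, from a peak at the mildest stress. Rank 17 was at 8.60 and 9.02 scaled FPKM in unstressed cells, 75.4 and 79.3 at 500 mOsm, 17.2 and 18.1 at 600 mOsm, 9.47 and 8.58 after the short stress, 5.88 and 7.93 after the long stress, and 95.1 and 94.8 at 2 h after release from it. Its RNA was 3.32 lower at 700 than at 500 mOsm (log2 difference -3.32, SE 0.102; limma adjusted p = 2.25e-12). The footprints had the same peak, with 15.3 and 17.7 scaled RPKM in unstressed cells, 266 and 288 at 500 mOsm, 49.5 and 57.6 at 600 mOsm, 28.0 and 37.1 after the long stress and 187 and 173 in recovery. In footprints, unlike RNA, both libraries of 500 mOsm were above those of the recovery.

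Rank 44 had 11.2 and 11.4 scaled FPKM in unstressed cells, 43.2 and 42.9 at 500 mOsm, 7.16 and 6.20 at 600 mOsm, 6.11 and 5.07 after the long stress and 63.2 and 63.0 at 2 h after release from it. It fell by 2.52 from 500 to 600 mOsm (log2, SE 0.0871; limma adjusted p = 1.29e-11). Its footprints were at 9.55 and 10.1 scaled RPKM in unstressed cells and 18.6 and 20.7 at 500 mOsm, were unlisted at 600 and 700 mOsm, and reached 44.5 and 49.8 in recovery. Ranks 136 and 97 had the same shape in RNA, with 19.4 ± 0.212 and 51.3 ± 0.946 scaled FPKM at 500 mOsm and 3.11 ± 0.452 and 10.6 ± 0.777 at 600 mOsm (mean ± SD, n = 2). In both, the 500 mOsm level was above that of the recovery from the long stress, at 13.0 ± 1.39 and 42.8 ± 0.599 scaled FPKM.

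Rank 130 peaked at the middle dose instead. Its RNA was at 8.81 and 10.7 scaled FPKM in unstressed cells, 28.4 and 27.4 at 500 mOsm, 52.6 and 59.5 at 600 mOsm, 5.95 and 7.04 after the long stress and 33.6 and 34.0 at 2 h after release from it. It rose by 0.98 (log2, SE 0.0847; limma adjusted p = 1.16e-06) from 500 to 600 mOsm and fell by 2.93 (SE 0.0981; limma adjusted p = 2.39e-11) from 600 to 700 mOsm. Its footprints were at 31.7 and 32.0 scaled RPKM in unstressed cells, 60.1 and 65.5 at 500 mOsm and 36.6 and 42.2 at 600 mOsm, so the middle dose was not their peak.

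In all, 9 members had a higher mean RNA level in another condition than at 2 h after release from the long stress. These were ranks 97, 136 and 150 at 500 mOsm, rank 130 at 600 mOsm, ranks 87, 109 and 132 after the short stress, and ranks 63 and 103 in the groups labelled 2 h after release from the short and 15 min after release from the long stress. For ranks 63, 87, 109 and 132 the difference was within the spread of the libraries: rank 63, for example, was at 10.2 ± 6.28 against 7.27 ± 0.0720 scaled FPKM (mean ± SD, n = 2 each).

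Length of stress at 700 mOsm separated the members as well. After 2 h 14 members were higher than after 15 min and 46 lower, beside 22.4% and 28.6% of all RNAs, with a median log2 difference of -0.29 against -0.02. Without the filter 15 and 42 of 150 were called, beside 12.8% and 16.6%, and with the filter over the 14 libraries 13 and 45 of 96, beside 22.5% and 28.8%. Rank 103 was at 17.7 and 20.6 scaled FPKM after 15 min and at 4.34 and 4.48 after 2 h (log2 difference -1.89, SE 0.125; limma adjusted p = 1.67e-08). Rank 102 went the other way, from 2.83 ± 0.0149 to 7.12 ± 0.555 scaled FPKM (SD, n = 2 in each group; log2 difference 1.08, SE 0.118; limma adjusted p = 2.63e-06), and rank 1 was 1.06 higher after 2 h (SE 0.12; limma adjusted p = 3.85e-06).

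After release from stress more members were higher than lower, and so were more of all RNAs. From the short stress to 15 min of recovery 49 members rose and 12 fell, beside 40.9% and 27.3% of all RNAs, with a median of 0.19 against 0.07. Without the filter 45 of 150 rose and 10 fell, beside 25.4% and 15.0%, and with the filter over the 14 libraries 43 of 96 and 12, beside 40.8% and 27.5%. The share that rose was thus near that of all RNAs past the same filter. The falls numbered 3 without the second library of that recovery, 7 with equal weights and 6 by voom on the recovered reads. In the libraries labelled 2 h of recovery 58 were higher and 16 lower than after the short stress, beside 33.5% and 22.7%, with a median of 0.27 against 0.07. Without the filter 59 of 150 were higher and 17 lower, beside 19.9% and 12.8%, and with the filter over the 14 libraries 50 of 96 and 15, beside 33.4% and 22.9%. With the exchanged group in their place, 72 of the 111 were higher and 6 lower, beside 37.3% and 27.5%, with a median of 0.40 against 0.05.

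From the long stress to the libraries labelled 15 min of recovery 73 of 111 members were higher and 8 lower, beside 38.8% and 29.0% of all RNAs. The median difference was 0.68 against 0.07 over all RNAs. Without the filter 80 of 150 were higher and 7 lower, beside 24.9% and 16.5%, and with the filter over the 14 libraries 66 of 96 and 8, beside 38.7% and 29.2%. With the exchanged group 62 of the 111 were higher and 1 lower, beside 28.0% and 13.7%, with a median of 0.48 against 0.06.

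Rank 103 had the largest such rise, from 4.34 and 4.48 to 42.3 and 44.8 scaled FPKM (log2 difference 3.04, SE 0.134; limma adjusted p = 4.21e-11). With the exchanged group the difference was 0.07 (SE 0.137; limma adjusted p = 0.697). It was at 8.37 and 9.41 in unstressed cells, at 21.6 and 20.0 at 15 min after release from the short stress, at 5.39 and 4.09 in the libraries labelled 2 h from the short stress and at 36.4 and 33.1 at 2 h after release from the long stress. Its footprints were at 91.7 and 79.0 scaled RPKM in the libraries labelled 2 h from the short stress and at 15.1 and 7.96 in those labelled 15 min from the long stress, the reverse of the order of its RNA.

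Ranks 38 and 144 were higher in the same comparison as labelled. Rank 38 was at 0.565 ± 0.00180 scaled FPKM after the long stress and 10.2 ± 1.34 in the libraries labelled 15 min of recovery (mean ± SD, n = 2 each; 2.84, SE 0.289; limma adjusted p = 3.35e-07). Rank 144 was at 4.66 ± 0.0149 and 35.6 ± 1.14 (2.69, SE 0.0709; limma adjusted p = 1.41e-13). With the exchanged group, at 0.781 ± 0.138 and 7.09 ± 0.157 scaled FPKM, the differences were 0.18 (SE 0.297; limma adjusted p = 0.652) and 0.51 (SE 0.0727; limma adjusted p = 4.26e-05). As labelled, rank 1 fell by 1.98 (log2, SE 0.129; limma adjusted p = 2.24e-09) and rank 23 by 1.52 (SE 0.108; limma adjusted p = 5.62e-09). With the exchanged group neither fall was seen: rank 1 was at 15.1 against 14.6 scaled FPKM after the long stress (log2 difference 0.06, SE 0.132; limma adjusted p = 0.769) and rank 23 at 47.2 against 46.7 (0.01, SE 0.111; limma adjusted p = 0.941).

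Rank 7 was higher than during stress in each early recovery. Its RNA was at 11.5 and 13.4 scaled FPKM in unstressed cells, 9.74 and 9.53 after the short stress, 6.89 and 5.36 after the long stress, and 22.2 and 22.2 at 15 min after release from the short stress. It stood at 69.4 and 74.6 in the libraries labelled 2 h from the short stress, at 31.2 and 29.5 in those labelled 15 min from the long stress, and at 204 and 221 at 2 h from the long stress. The rise over the short stress was 1.12 after 15 min (log2, SE 0.0662; limma adjusted p = 7.58e-10) and 2.78 in the libraries labelled 2 h (SE 0.0848; limma adjusted p = 2.83e-12), or 1.56 with the exchanged group (SE 0.0812; limma adjusted p = 4.36e-10). Its footprints were at 35.4 and 38.0 scaled RPKM in unstressed cells, 76.4 and 69.0 in the libraries labelled 2 h from the short stress, 121 and 112 in those labelled 15 min from the long stress and 440 and 425 at 2 h from the long stress.

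Set directly against each other, the libraries labelled 15 min after release from the long stress had 36 members higher and 24 lower than those labelled 2 h after release from the short stress. The shares over all RNAs were 28.6% and 26.0%, and the medians 0.08 and 0.01. Without the filter 39 of 150 were higher and 24 lower, beside 17.0% and 14.2%, and with the filter over the 14 libraries 31 of 96 and 20, beside 28.6% and 26.0%. With the 2 groups exchanged, higher and lower change places. Past the filters both counts of members were near the shares of all RNAs.

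**Figure D5:**
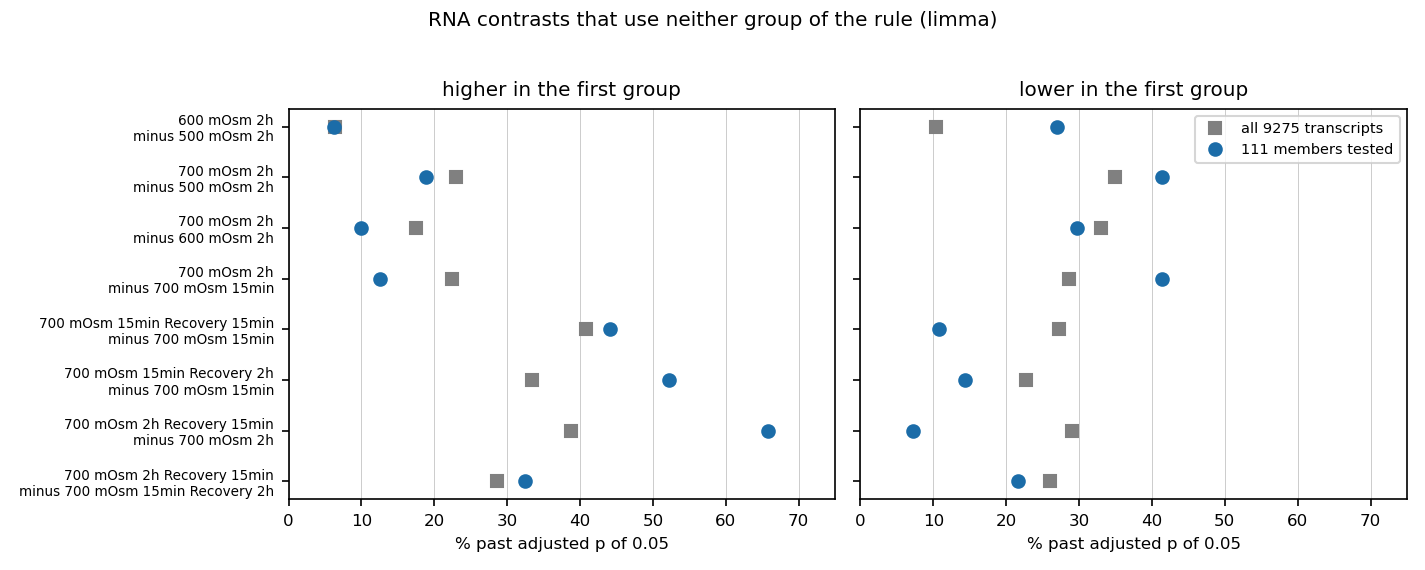
Share of the 111 members past the filter (circles) and of all 9275 RNAs (squares) that were higher (left) or lower (right) in the first group than in the second, at a limma adjusted p of 0.05, in the 8 RNA comparisons that use neither group of the rule; groups are as labelled, and 15 of the members passed the filter only with the libraries of the rule. The distance between circle and square is widest for the libraries labelled 15 min after release from the long stress, where 73 members were higher and 8 lower.

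The members had shorter coding sequences than the transcripts they were chosen from. Lengths were solved for from the deposited values. The lowest solved non-coding length of a candidate was -5139 nt, so some solved lengths are wrong. Among the members the lowest was 0 nt. The 123 members in a footprint list had a median of 355 codons, against 467 for the 10916 candidates in such a list, and 9 of them (7.32%) had over 800 codons, against 22.2%. Up to 200 codons were found in 24 members (19.5%), against 13.2% of candidates. The median transcript length was 2388 nt for the 150 members and 2856 nt for the 12890 candidates, while the non-coding length had medians of 1232 and 1156 nt. In coding length the 150 transcripts next in the ratio lay between members and candidates, with a median of 424.5 codons and 20.2% over 800 codons; their median non-coding length was 1318 nt. These are descriptions of chosen lists and were not tested.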

How the data were processed

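Per the labels' protocols, cytoplasmic lysates were used for both assays; footprints came from gradient fractions with ribosomes, digested with RNase I. The authors deposited 1 list per library, with RPKM for Ribo-seq and FPKM for RNA-seq, per the file names. The submitters' processing notes list cutadapt, Bowtie, STAR and GRCm38. The annotation is not given in the sources used here, nor is the way reads were assigned.

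The deposited FPKM and RPKM values were solved for whole reads, lengths and library totals (relative tolerance 1e-09); unlisted transcripts were set to 0. Scaling factors were median ratios to geometric means, over transcripts with values above 0 throughout an assay and a mean of at least 10, and a pseudocount of 1 was added before log2. A transcript passed the filter at a mean of at least 2 scaled units. RNA was tested with limma 3.58.1 (R 4.3.3; Python 3.11.15 for the rest): all 18 libraries and 9 groups entered 1 fit, weighted by group and with a trend of variance on level; tests were two-sided, with Benjamini-Hochberg adjustment over all transcripts tested. The scripts were tested on simulated data. Counting error alone is what the read numbers tell of precision.

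Members and lists were chosen with earlier results of these data known. Members named are the 10 highest in the ratio, the 3 largest rises and falls per tested comparison, the 5 largest and smallest footprint changes past the filter, and those at the edge of the rule; the few discussed were picked from these. The members highest in another condition were named after their values were seen. The planned gene lists, cell type markers and promoter motifs were not applied, since no table used here ties these identifiers to genes; for the same reason no sequence is printed. The planned limma test of footprints was not used, since each pair counted as 1 sample. Alternatives were the pseudocount, the filter, the scaling, equal weights, fits on compared groups, the replicate block and leaving out each library; filters without the 4 RNA libraries of the rule or the 2 footprint libraries of a condition, voom on recovered reads and the exchanged groups were added after seeing the data.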

Additional observations from a re-analysis of the deposited data

How the results depend on the processing

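With the exchanged group 6 differences of single members turned: against the short stress those of rank 103 (1.15), rank 38 (1.34) and rank 1 (-0.92), and against the long stress those of rank 1 (0.06), rank 23 (0.01) and rank 61 (0.02). On the values as deposited, 13 members rose from 500 to 700 mOsm in place of 21, 6 rose from 600 to 700 mOsm in place of 11, and 1 and 9 members were at least 2-fold higher in footprints after the short and the long stress in place of 9 and 19. Rises from 600 to 700 mOsm numbered 6 without the filter, 7 by voom on recovered reads and 3 to 19 when 1 library was left out. Falls from the short stress to its 15 min recovery, 12 in the main analysis, were 7 with equal weights, 6 by voom and 3 to 8 with 1 library left out. Members lower in the libraries labelled 15 min of recovery than after the long stress, 8 in the main analysis, were 5 by voom and 1 with the exchanged group; lower in those labelled 2 h of recovery than after the short stress were 6 with the exchanged group in place of 16. Footprints at 15 min after release from the short stress were at least 2-fold higher in 5 members with a pseudocount of 0.25 and in 3 to 4 with 1 library left out, in place of 2. At 2 h after release from the long stress 1 member past listing was lower without the filter, and 0 to 1 with 1 library left out, in place of 0. The cause of these shifts was not tested. The other 281 counts stayed within 1.5 times. Of the other tests of single members, 74 missed the threshold under an alternative and 1009 kept direction and side. With 1 library left out, an arm of 1 library is assumed to vary like the other groups. The rule shared 140 to 146 members with the main choice when 1 library was left out, 114 with a pseudocount of 0.25, 109 with one of 5 and 150 on scaled values. The replicate numbers were not taken to pair the libraries: of 36 pairs of groups, 6 had a correlation of same-numbered deviations over 0.1 (lowest -0.31, median 0.01, highest 0.31). With the replicate block, 73 members were higher and 7 lower in the libraries labelled 15 min of recovery than after the long stress, and 46 rose and 11 fell from the short stress to its 15 min recovery; the block moved no count of members past 1.5 times. Depth limits the footprints at 700 mOsm, where 97 to 105 members were unlisted in both libraries, among them the 27 in no footprint list.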
